A study of Mus musculus with 9 samples.

Results

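The genes described here are 10 transcription factor genes that cells switch on quickly after a stimulus: Egr1, Egr2, Egr3, Nr4a1, Nr4a2, Nr4a3, Fos, Fosb, Jun and Junb. They were found by gene symbol in 2 RNA sequencing tables, and all 10 were present among 36442 genes of the epidermal table and among 24016 gene symbols of the regulatory T cell (Treg) table. Where the Treg table listed several transcripts of a gene, the transcript with the highest mean was used. The rule used symbols and no measured difference between groups, but the members were chosen with earlier results of these data known. The genes lie on chromosomes 18 (Egr1), 10 (Egr2), 14 (Egr3), 15 (Nr4a1), 2 (Nr4a2), 4 (Nr4a3 and Jun), 12 (Fos), 7 (Fosb) and 8 (Junb).

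The 9 mouse libraries came from sorted cells. Epidermal keratinocytes of adult skin were sampled in a Mi2 group (2 libraries) and a WT group (2 libraries). Tregs of skin-draining lymph nodes were sampled as TSLPR-negative Tregs of Mi2 mice (1 library), TSLPR WT Tregs of Mi2 mice (2 libraries) and Ctl Tregs (2 libraries). Mi2 names the chromatin remodeller Mi-2β, which Chd4 encodes, and the column names mark those libraries as Mi2KO; TSLPR is the receptor of the cytokine TSLP, and Crlf2 encodes it. The Treg columns are named WT for the Ctl group, Mi2KO for the TSLPR WT Mi2 group and TMDKO for the TSLPR-negative library. TMDKO was matched to the TSLPR-negative title only because it is the one Treg column without a number and that is the one Treg title without a number, so this match is an inference. The column names also say skin where the labels give lymph nodes that drain the skin, so the tissue of the Treg libraries is uncertain. The driver of the Mi2 alteration, what TMDKO stands for, the way TSLPR-negative cells were obtained, the ages and the number of mice behind a library are not stated in the labels. Nothing states that replicates came from separate mice, so p-values measure only the spread between these libraries, which may be technical.

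Depth was 7662946 and 5682391 reads in Mi2 epidermis and 7002100 and 8913804 in WT epidermis. In Tregs the reads were summed over 33022 transcripts, so reads shared by transcripts of 1 gene may count more than once. These sums were 30629057 in TSLPR-negative Tregs, 29314512 and 25973974 in TSLPR WT Mi2 Tregs, and 21849381 and 32238992 in Ctl Tregs. They may overstate depth and cannot be set against the epidermal totals. Chd4 stood at 734 and 1207 normalized reads in Mi2 epidermis and at 1607 and 1942 in WT epidermis (log2 change -0.91, adjusted p = 0.0456 by limma, a call that ended in 6 of 15 alternative fits). Crlf2 stood at 51.5 normalized reads in TSLPR-negative Tregs, 816 and 715 in TSLPR WT Mi2 Tregs and 395 and 742 in Ctl Tregs. The TMDKO column, matched to its title by the missing number, thus held the lowest Crlf2 value of the 5 Treg libraries, the direction that a TSLPR-negative title implies. In Tregs, Chd4 stood at 15392 normalized reads in the TSLPR-negative library, 12374 and 13660 in TSLPR WT Mi2 Tregs and 11757 and 15129 in Ctl Tregs. Chd4 transcript was thus not lower in Tregs of Mi2 mice than in Ctl Tregs. Foxp3, the transcription factor that defines Tregs, lay between 11159 and 15371 in all 5 Treg libraries. The summed keratinocyte markers lay between 250428 and 311835 in epidermis and between 63.5 and 115 in Tregs. Mitochondrially encoded genes took 29.7% and 15.5% of the reads in Mi2 epidermis against 13.8% and 12.9% in WT epidermis.

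As background, Egr1, Egr2 and Egr3 encode zinc finger factors induced through MAP kinases and, in T cells, through the antigen receptor; Egr2 and Egr3 are known to restrain T cell activation. Nr4a1, Nr4a2 and Nr4a3 encode orphan nuclear receptors that report antigen receptor signalling in T cells and take part in Treg development. Fos, Fosb, Jun and Junb encode basic leucine zipper proteins that pair to form AP-1, which in epidermis acts in proliferation, differentiation and wounding, while Junb together with the related factor Batf serves effector programmes in Tregs.

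Promoter sequence from RefSeq (GRCm38.p6) was searched for 8 members. Egr1 and Egr3 were left out of this search, so the counts below do not describe their promoters. The 250 bases before the start site were searched on both strands for letters that known regulators of these genes read. The Egr site GCGNGGGCG was in 3 of the 8 windows, those of Nr4a1, Nr4a2 and Fosb, and in 4.74% of 32536 windows of the same length. The CArG box, the site of serum response factor, was in the window of Egr2 and in 1.48% of all windows. The cyclic AMP response element TGACGTCA, the AP-1 site TGANTCA and the Nr4a site AAAGGTCA were in 0 of the 8 windows, and in 1.56%, 6.73% and 1.35% of all windows. TATAAA was in the windows of Nr4a2 and Fos and in 12.3% of all windows. The windows with an Egr site or a CArG box are shown because they carry the letters by which one member could be read by another or by serum response factor; the capitals mark those matches and, in Nr4a2, also TATAAA on the opposite strand. They lie at chr10:67537619-67537868 on the plus strand for Egr2, chr15:101266596-101266845 on the plus strand for Nr4a1, chr2:57124004-57124253 on the minus strand for Nr4a2 and chr7:19310046-19310295 on the minus strand for Fosb. A match of letters describes the window and does not show that a factor binds there.
Egr2: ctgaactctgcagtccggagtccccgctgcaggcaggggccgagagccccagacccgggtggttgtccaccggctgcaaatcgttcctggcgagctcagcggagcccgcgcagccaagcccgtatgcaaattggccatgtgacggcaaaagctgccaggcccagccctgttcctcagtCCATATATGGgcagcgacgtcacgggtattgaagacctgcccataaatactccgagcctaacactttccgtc
Nr4a1: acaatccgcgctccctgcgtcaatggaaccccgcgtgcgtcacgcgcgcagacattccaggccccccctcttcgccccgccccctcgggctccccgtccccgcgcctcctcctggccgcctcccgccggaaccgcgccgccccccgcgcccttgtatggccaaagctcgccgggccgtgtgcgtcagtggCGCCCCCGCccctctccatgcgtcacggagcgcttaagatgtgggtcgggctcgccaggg
Nr4a2: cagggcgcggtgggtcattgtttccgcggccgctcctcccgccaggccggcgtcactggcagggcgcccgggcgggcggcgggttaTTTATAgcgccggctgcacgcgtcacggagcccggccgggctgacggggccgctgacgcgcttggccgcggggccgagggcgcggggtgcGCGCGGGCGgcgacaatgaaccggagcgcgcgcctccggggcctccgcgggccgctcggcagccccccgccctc
Fosb: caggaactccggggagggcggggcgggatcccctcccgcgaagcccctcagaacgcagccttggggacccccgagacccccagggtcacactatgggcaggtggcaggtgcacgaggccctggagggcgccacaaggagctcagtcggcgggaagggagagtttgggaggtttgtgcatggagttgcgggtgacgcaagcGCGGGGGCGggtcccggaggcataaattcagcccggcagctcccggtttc

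The comparison of TSLPR WT Tregs of Mi2 mice with Ctl Tregs asks how these genes stood in Tregs of Mi2 mice labelled as wild type for the TSLP receptor. The Egr and Nr4a families, Jun and Fosb were lower in TSLPR WT Mi2 Tregs, Junb was higher, and Fos did not pass the test. Of the 10 members, 8 were called lower and 1 higher at an adjusted p under 0.05, while 27.7% of the 12206 genes tested were called in either direction, 13.0% of them lower and 14.7% higher. The groups did not overlap for 9 members, 8 lower and 1 higher, against 65.6% of all genes, 32.7% lower and 32.9% higher. The median log2 change was -1.56 over the 10 members and -0.01 over all genes tested. Because earlier results of these data were known when the members were chosen, these counts do not come from a blind choice of genes. All values are normalized reads as deposited, and all changes are log2 differences of (value + 1) from limma, whose p-values were adjusted by the Benjamini-Hochberg method over all genes tested.

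Of the Egr genes, Egr2 had 266 and 353 normalized reads in TSLPR WT Mi2 Tregs against 1106 and 1442 in Ctl Tregs. Its mean fell to 310 ± 61.5 in TSLPR WT Mi2 Tregs, against 1274 ± 237 in Ctl Tregs (SD, n = 2 each; log2 change -2.04, SE 0.249, adjusted p = 4.3e-05 by limma). Both TSLPR WT Mi2 libraries lay below both Ctl libraries, as they did for the other Egr genes. Egr3 had 230 and 436 in TSLPR WT Mi2 Tregs against 1216 and 1165 in Ctl Tregs (log2 change -1.91, SE 0.285, adjusted p = 2.1e-04 by limma). Egr1 had 1134 and 1281 in TSLPR WT Mi2 Tregs against 2681 and 2744 in Ctl Tregs (log2 change -1.17, SE 0.202, adjusted p = 6.7e-04 by limma). The Ctl libraries were close to each other for Egr1 and Egr3, where the higher was 1.02 and 1.04 times the lower, while the median gene differed 1.22-fold between them. The TSLPR WT Mi2 libraries were 1.13, 1.33 and 1.89 times apart for Egr1, Egr2 and Egr3.

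Of the Nr4a genes, Nr4a3 had 101 and 184 normalized reads in TSLPR WT Mi2 Tregs against 443 and 626 in Ctl Tregs (log2 change -1.94, SE 0.320, adjusted p = 4.7e-04 by limma). Nr4a1, the most abundant of the 3, had 1141 and 1412 in TSLPR WT Mi2 Tregs against 2046 and 3058 in Ctl Tregs (log2 change -0.98, SE 0.234, adjusted p = 0.00633 by limma). Nr4a2 had 26.5 and 29.9 in TSLPR WT Mi2 Tregs against 62.7 and 77.8 in Ctl Tregs (log2 change -1.28, SE 0.438, adjusted p = 0.0410 by limma). The groups were apart for each of the 3 genes, but Nr4a2 rested on few reads, 30 in each TSLPR WT Mi2 library and 53 and 97 in the Ctl libraries. The call of Nr4a2 ended with any of the 4 libraries left out, with log2 changes of -1.44 to -1.13 (adjusted p = 0.0757 to 0.202 by limma). It also ended with DESeq2 (adjusted p = 0.0906). The call of Nr4a1 ended without Ctl replicate 2 (log2 change -0.69, adjusted p = 0.0551 by limma) and in limma without trend (-0.98, 0.0579).

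The AP-1 genes did not move together. Jun had 32.6 and 68.7 normalized reads in TSLPR WT Mi2 Tregs against 150 and 259 in Ctl Tregs (log2 change -2.03, SE 0.416, adjusted p = 0.00227 by limma). Fosb had 5.29 and 13.9 in TSLPR WT Mi2 Tregs against 24.9 and 44.9 in Ctl Tregs (log2 change -1.83, SE 0.605, adjusted p = 0.0358 by limma), on 6 and 14 reads in TSLPR WT Mi2 Tregs and 21 and 56 in Ctl Tregs. Both genes were lower without overlap, and the call of Fosb ended without TSLPR WT Mi2 replicate 1 (log2 change -1.21, adjusted p = 0.190 by limma) or without Ctl replicate 2 (-1.42, 0.227), and with DESeq2 (-1.88, 0.117).
Junb had 4052 and 4496 normalized reads in TSLPR WT Mi2 Tregs against 1895 and 3006 in Ctl Tregs, and was the only member called higher there (log2 change 0.84, SE 0.233, adjusted p = 0.0150 by limma). Its call ended without TSLPR WT Mi2 replicate 2 (log2 change 0.76, adjusted p = 0.0621 by limma) or without Ctl replicate 1 (0.51, 0.133), and in limma without trend (0.84, 0.0908). Fos, with 108 and 125 in TSLPR WT Mi2 Tregs and 133 and 107 in Ctl Tregs, overlapped between the groups (log2 change -0.03, 95% interval -0.75 to 0.68, adjusted p = 0.954 by limma). Neither sequencing table states a strand setting. In the GENCODE annotation of GRCm38, exons of Jun share 232 bases with the antisense gene Junos. Exons of Junb share 173 bases there with Prdx2 on the opposite strand. Reads in such shared bases cannot be told apart. The overlap was not computed for the RefSeq transcripts counted in the Treg table.

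**Figure D1:**
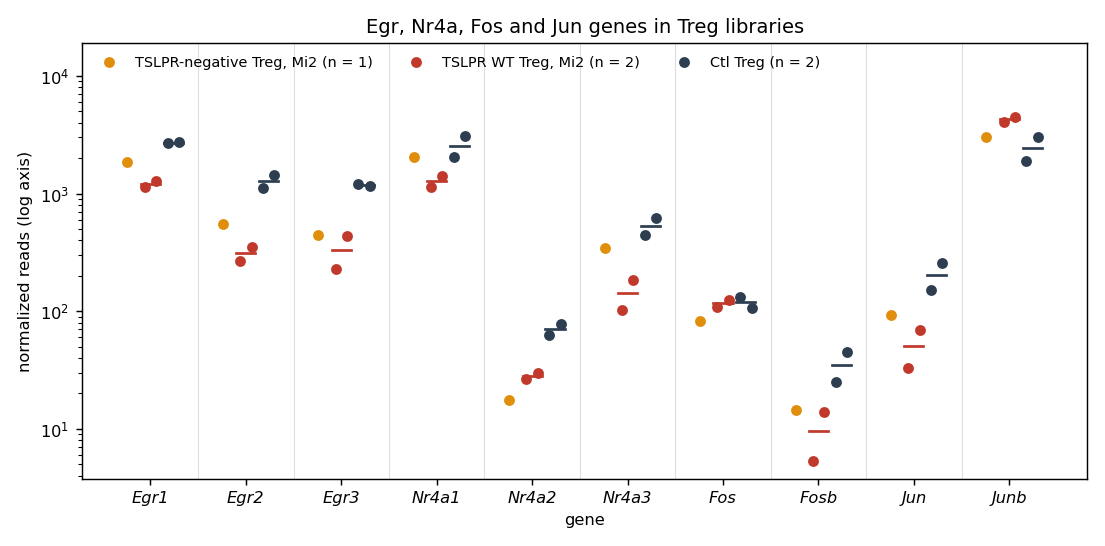
Normalized reads (log axis) of the 10 genes in each Treg library; points are libraries and short lines are means of 2 libraries. Both red points of TSLPR WT Mi2 Tregs lie below both dark Ctl points for 8 genes, lie above them for Junb and overlap them for Fos. The single orange TSLPR-negative library lies between the group means for 8 of 10 genes, a count for which no share over all genes was computed.

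With no filter on low values, 0 of the 10 members and 0 genes in all were called in this comparison, although the fitted changes were the same; 9 members and 5043 of 16831 genes had an unadjusted p under 0.05. The prior degrees of freedom, which set how far limma shares the spread between genes, were then 1.74 against 12.5 with the filter at a mean of 10. At an unadjusted p under 0.05 the filtered fit had 9 members, a cutoff at which its share over all genes was not computed. On reads recovered from the deposited values, edgeR called 9 members beside 3390 of 12206 genes. DESeq2 called 7 members beside 3182 of 12206 genes.

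Markers of some other cells, most of all B cells, were also lower in TSLPR WT Mi2 Tregs, while other lists did not share this direction. All 7 B cell markers tested were called lower in TSLPR WT Mi2 Tregs, and their summed level was 1163 normalized reads in TSLPR-negative Tregs, 1140 and 1352 in TSLPR WT Mi2 Tregs and 5795 and 2833 in Ctl Tregs, with none of the 7 at 0 in any library. Of 7 tested myeloid and dendritic cell markers 1 was called higher and 1 lower, and their sum was 3145 in TSLPR-negative Tregs, 4309 and 5056 in TSLPR WT Mi2 Tregs and 9291 and 6240 in Ctl Tregs. Most of that sum was Cd74, which B cells also express, and Cd14 was at 0 in 4 of the 5 libraries. The CD8 and NK cell markers had 0 higher and 2 lower of 3 tested, with sums of 1532 in TSLPR-negative Tregs, 617 and 940 in TSLPR WT Mi2 Tregs and 1592 and 1728 in Ctl Tregs. Melanocyte and endothelial markers each had 0 higher and 1 lower of 2 tested. Fibroblast markers had 1 higher of 1 tested, and of 6 T lymphocyte markers 0 were called. The part of these cells in the result was not tested, and in bulk samples fewer cells of a type cannot be told apart from less RNA per cell. Without Ctl replicate 1, the library with the highest B cell sum, the log2 changes were -1.19 for Egr1, -2.23 for Egr2 and -1.88 for Egr3. They were -1.27 for Nr4a1, -1.44 for Nr4a2, -2.19 for Nr4a3, -2.43 for Jun and 0.51 for Junb. Ctl replicate 2, which remained, had a B cell sum of 2833, above the 1140 and 1352 of TSLPR WT Mi2 Tregs. It also had the highest CD8 and NK cell sum, 1728. This fit therefore cannot separate the part of these cells from the changes.

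Other genes of the same pathways were read from lists, whose counts stand beside 27.7% of all genes called, 14.7% higher and 13.0% lower. Of 8 tested relatives of these factors, 2 were called higher and 0 lower: Batf, the AP-1 partner of Junb, with a log2 change of 1.28 (adjusted p = 3.4e-04 by limma), and Batf3, with 2.18 (0.0152). The median of that list was -0.09, against -0.01 over all genes. Of 9 MAP kinase feedback genes, 1 was higher and 2 lower; Spry1 and Dusp6, which restrain the ERK pathway, changed by -1.66 and -1.62, and Dusp4, another MAP kinase phosphatase, by 1.03. Of 21 other immediate early genes, 2 were higher and 7 lower (list median -0.35); the antiproliferative genes Btg1 and Btg2 changed by -1.76 and -1.22, Nfkbiz by -0.96 and Ctgf by 2.37. Of 11 serum response and Egr cofactors, 1 was higher and 2 lower; Elk4, a partner of serum response factor, changed by -0.88, the coactivator Crebbp by -0.69, and Nab1, a corepressor of Egr proteins, by 0.62. The call of Nab1 (adjusted p = 0.0488 by limma) ended in 9 of 16 alternative fits.
Of 18 genes that antigen receptor signalling induces in T cells, 5 were higher and 4 lower (list median 0.33). The 4 with the smallest p were higher: Icos by 1.99, Ctla4 by 1.46, Irf4 by 1.02 and Tnfrsf4 by 0.85, all surface receptors of activated T cells but Irf4, a transcription factor. Tnfrsf9 was also higher, by 0.64. The 4 called lower, the direction of the Egr and Nr4a genes, were Rel at -0.92, the early activation marker Cd69 at -0.91, Myc at -0.63 and Tagap at -0.60. Cd69 had 1715 and 1542 normalized reads in TSLPR WT Mi2 Tregs against 4710 and 1976 in Ctl Tregs, so its Ctl libraries stood far apart. Tnfrsf9 and these 4 lower genes were not followed singly in the alternative fits. Of 8 heat shock genes, which rise when tissue is dissociated, 1 was higher, Hsp90aa1 by 0.76, and 0 were lower (list median 0.09). Without the filter none of these calls held, and some ended elsewhere too: Crebbp, Tnfrsf4 and Hsp90aa1 each lost theirs in 4 of 16 alternative fits, Elk4 and Nfkbiz in 3 and Dusp4 in 2. Batf3 lost its call in 4 of 15, DESeq2 among them (log2 change 2.44, adjusted p = 0.0821).

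The library of TSLPR-negative Tregs asks whether the same genes stood differently in Tregs of Mi2 mice labelled as lacking the receptor. It has no replicate, and its comparisons assume that it would vary like the other groups. Its comparison with Ctl Tregs uses the same Ctl libraries as above, so the values are given side by side. Egr2 had 550 normalized reads in the TSLPR-negative library against 1106 and 1442 in Ctl Tregs (log2 change -1.20, SE 0.305, adjusted p = 0.0465 by limma). Egr3 had 447 there against 1216 and 1165 in Ctl Tregs (log2 change -1.41, SE 0.349, adjusted p = 0.0404 by limma). They were the 2 members called, both lower, of 10, beside 3.15% of all genes called in either direction, 2.63% called higher and 0.516% called lower. Both calls ended without Ctl replicate 2, with log2 changes of -1.01 for Egr2 (adjusted p = 0.151 by limma) and -1.44 for Egr3 (0.0632); that of Egr3 also ended without Ctl replicate 1 (-1.38, 0.0678), and both ended in limma without trend (adjusted p = 0.178 and 0.209) and with no filter (0.379 and 0.394). Nr4a2 was at 17.7 against 62.7 and 77.8 in Ctl Tregs, the lowest of the 5 libraries, and was not called (log2 change -1.92, adjusted p = 0.0733 by limma), except with TSLPR WT Mi2 replicate 1 or 2 left out (0.0168 and 0.0193).
Nr4a1, at 2048, lay within the Ctl values of 2046 and 3058 (log2 change -0.29, 95% interval -0.90 to 0.32). Egr1 at 1867, Nr4a3 at 343, Jun at 92.0 and Fosb at 14.4 lay below both Ctl libraries without a call, with log2 changes of -0.54, -0.62, -1.09 and -1.17. In all, the TSLPR-negative library lay outside the Ctl values for 9 members, 8 lower and 1 higher, against 72.2% of all genes, 31.3% lower and 40.9% higher. B cell markers were lower here too, with 0 higher and 5 lower of 7 tested, and their part was not tested.

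Set against TSLPR WT Mi2 Tregs, the TSLPR-negative library had 0 of 10 members called, beside 0.942% of all genes (115 of 12206), 0.737% higher and 0.205% lower. An unadjusted p under 0.05 was found for 4 members, a cutoff at which the share over all genes was not computed in this fit. edgeR and DESeq2 called 0 members as well. The TSLPR-negative value lay above both TSLPR WT values for 7 members and below both for 3, while 73.2% of all genes lay outside in either direction, 38.8% above and 34.5% below. Nr4a3 differed most, at 343 in the TSLPR-negative library against 101 and 184 in TSLPR WT Mi2 Tregs (log2 change 1.32, SE 0.393, adjusted p = 0.150 by limma). Of 14 alternative fits it was called in 1, with TSLPR WT Mi2 replicate 2 left out (log2 change 1.75, adjusted p = 0.00181 by limma).
Egr2 was at 550 against 266 and 353 (log2 change 0.84, 95% interval 0.19 to 1.49), Nr4a1 at 2048 against 1141 and 1412 (0.69, interval 0.08 to 1.30) and Egr1 at 1867 against 1134 and 1281 (0.63, interval 0.10 to 1.16), with adjusted p of 0.256, 0.345 and 0.301 by limma. Egr3 at 447 was close to the higher TSLPR WT value of 436, and Fosb at 14.4 close to the higher value of 13.9. Junb had 3052 in the TSLPR-negative library against 4052 and 4496 in TSLPR WT Mi2 Tregs (log2 change -0.48, 95% interval -1.09 to 0.13), and Fos had 82.7 against 108 and 125 (-0.49, interval -1.36 to 0.38). For 8 members the TSLPR-negative value lay between the means of TSLPR WT Mi2 and Ctl Tregs, and for Nr4a2 and Fos it lay below both. The share of all genes lying between those means was not computed, so the count of 8 has no background. None of the 6 related gene lists had a call by limma in either comparison of this library with all 5 libraries and the settings above. Against TSLPR WT Mi2 Tregs 18 of their genes had an unadjusted p under 0.05, with 0 calls by edgeR and 3 by DESeq2, and against Ctl Tregs 11, with 0 and 0. For these counts too, no share over all genes at that cutoff was computed. Against TSLPR WT Mi2 Tregs, the smallest p in the MAP kinase feedback list was that of Spry1, with a log2 change of 1.42 (adjusted p = 0.0950 by limma), and in the other immediate early genes Btg1 had the smallest p (log2 change 1.16, adjusted p = 0.0545 by limma). Btg1 was called in 6 of 14 alternative fits, among them a pseudocount of 5 (adjusted p = 0.0488 by limma) and scaling without the 50 most abundant genes (0.0472). With 1 library left out, limma also called Rhob, Spry1, Dusp1, Dusp6 and Icos against TSLPR WT Mi2 Tregs, and Dusp1 and Jund against Ctl Tregs.

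Per kilobase of transcript, Junb was the most abundant member in all 3 Treg groups, with 1661 normalized reads per kb in TSLPR-negative Tregs, 2327 ± 171 in TSLPR WT Mi2 Tregs and 1334 ± 428 in Ctl Tregs (SD, n = 2). Nr4a1 and Egr1 followed, with 830 and 609 in TSLPR-negative Tregs, 517 ± 77.5 and 394 ± 33.9 in TSLPR WT Mi2 Tregs, and 1034 ± 290 and 884 ± 14.3 in Ctl Tregs. In Ctl Tregs Junb stood above Nr4a1 in each library, at 1031 against 829 and 1636 against 1240 per kb. Nr4a1 and Egr1 changed order between the Ctl libraries, at 829 against 874 and 1240 against 894. In TSLPR WT Mi2 Tregs Junb stood apart from both. Egr2 came next in all 3 groups, and Nr4a2 and Fosb were the least abundant, at 23.3 ± 3.53 and 9.25 ± 3.76 per kb in Ctl Tregs.

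The epidermal comparison asks how the same genes stood in keratinocytes of the Mi2 group. Egr3 and Junb were higher and Fosb was lower in Mi2 epidermis; the other 6 tested members did not pass the test, and Nr4a3 was left out because its mean was under 10 normalized reads. Of 9 members tested, 2 were called higher and 1 lower, beside 28.2% of the 14461 genes tested in either direction, 15.1% higher and 13.1% lower. The groups did not overlap for 2 members higher and 2 lower, against 70.7% of all genes, 34.9% higher and 35.8% lower. The share of members called was thus near that of all genes, and their median log2 change was 0.04, against -0.03 over all genes.

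Egr3, at chr14:70077203-70082614 (GRCm38), had 316 and 691 normalized reads in Mi2 epidermis against 71.5 and 127 in WT epidermis. Its mean was 503 ± 265 in Mi2 epidermis and 99.2 ± 39.3 in WT epidermis (SD, n = 2 each; log2 change 2.28, SE 0.423, adjusted p = 0.0102 by limma). Both Mi2 libraries lay above both WT libraries, and the gene was called in all 15 alternative fits, with log2 changes of 1.72 to 2.84. Fosb, at chr7:19302696-19310051, had 61.0 and 105 in Mi2 epidermis against 307 and 571 in WT epidermis (log2 change -2.37, SE 0.378, adjusted p = 0.00626 by limma). Its Mi2 values lay below both WT values, and it too was called in all 15 alternatives, at -2.82 to -1.92.
Junb, at chr8:84974484-84978718, had 3198 and 3185 normalized reads in Mi2 epidermis against 1699 and 1834 in WT epidermis (log2 change 0.85, SE 0.192, adjusted p = 0.0186 by limma). The replicates of each group were close, but the call ended without WT replicate 1 (log2 change 0.80, adjusted p = 0.141 by limma), without WT replicate 2 (0.91, 0.0883), in limma without trend (0.85, 0.0536), and when mitochondrial genes were left out of the scaling (0.62, 0.0555).

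Markers of other cells and of keratinocyte differentiation also differed in epidermis. Of 7 keratinocyte markers 1 was called, the differentiation keratin Krt1, lower in Mi2 epidermis (log2 change -1.67, adjusted p = 0.0175 by limma). The summed T lymphocyte markers stood at 1639 and 817 normalized reads in Mi2 epidermis against 283 and 166 in WT epidermis. Nearly all of that was Thy1 (log2 change 2.52, adjusted p = 0.00584 by limma), while Cd3d was at 0 in 3 of the 4 libraries and Cd3e and Cd3g were at 0 in Mi2 replicate 1. The melanocyte markers summed to 17.2 and 9.54 in Mi2 epidermis against 92.3 and 113 in WT epidermis, most of it in WT epidermis Mitf, the only one tested (log2 change -3.38, adjusted p = 0.00248 by limma). Of 5 tested myeloid and dendritic cell markers, 1 was higher, Cd74 (log2 change 1.44, adjusted p = 0.0192 by limma), and the sums of that list were 444 and 783 in Mi2 epidermis against 257 and 528 in WT epidermis. Of 3 tested Treg markers 2 were lower, Ikzf2 (log2 change -1.50, adjusted p = 0.00592 by limma) and Tnfrsf18 (-0.91, 0.0497, a call that ended in 10 of 15 alternative fits). The part of these cells in the epidermal result was not tested.

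The Mi2 libraries stood far apart for several members. Egr1 had 791 and 3866 normalized reads in Mi2 epidermis against 1387 and 2075 in WT epidermis, Egr2 had 95.5 and 399 against 142 and 249, and Jun had 498 and 1523 against 1316 and 1253. The Mi2 values of Egr1 and Egr2 lay on either side of both WT values, and those of Jun did so too. The higher Mi2 library was 4.89, 4.18 and 3.06 times the lower for Egr1, Egr2 and Jun, against 1.75 for Egr2 and 1.05 for Jun between the WT libraries. The WT libraries were also apart over the members, by 2.55 times for Nr4a1 and 3.90 times for Nr4a3. Over the 10 members the median ratio of the higher to the lower library was 1.89 in Mi2 and 1.72 in WT epidermis, where the median gene differed 1.29-fold and 1.16-fold. Replicate 2 was the higher for 8 members in Mi2 and for 9 in WT epidermis. The share of all genes higher in replicate 2 was not computed, so these counts have no background. The lower Mi2 values of Egr1, Egr2 and Jun were those of replicate 1, the library with 29.7% mitochondrial reads; whether the 2 are related was not tested. Without Mi2 replicate 1 the log2 change of Egr1 was 1.19 (adjusted p = 0.0387 by limma), and without Mi2 replicate 2 it was -1.10 (0.0450). Jun likewise stood at 0.25 without Mi2 replicate 1 and at -1.37 without Mi2 replicate 2 (adjusted p = 0.316 and 0.00743 by limma). With all 4 libraries the log2 changes were 0.04 for Egr1 (95% interval -1.50 to 1.58), 0.06 for Egr2 (-1.41 to 1.52) and -0.56 for Jun (-1.65 to 0.53), none of them called.

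Fos had 767 and 1042 normalized reads in Mi2 epidermis against 976 and 1652 in WT epidermis (log2 change -0.51, 95% interval -1.20 to 0.19), with overlapping groups. Nr4a1 had 157 and 161 in Mi2 epidermis, within the WT values of 95.3 and 243. Nr4a2 had 7.96 and 6.81 in Mi2 epidermis against 14.9 and 16.7 in WT epidermis, on 6 and 5 reads in Mi2 and 15 and 23 in WT libraries, and was not called (95% interval of the log2 change -2.24 to 0.23, adjusted p = 0.187 by limma). Nr4a3 had 6.63 and 13.6 in Mi2 epidermis and 2.98 and 11.6 in WT epidermis, between 3 and 16 reads a library. Of 13 alternative fits 1 called Nr4a2 lower, limma without trend (log2 change -1.0, adjusted p = 0.0425).

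**Figure D2:**
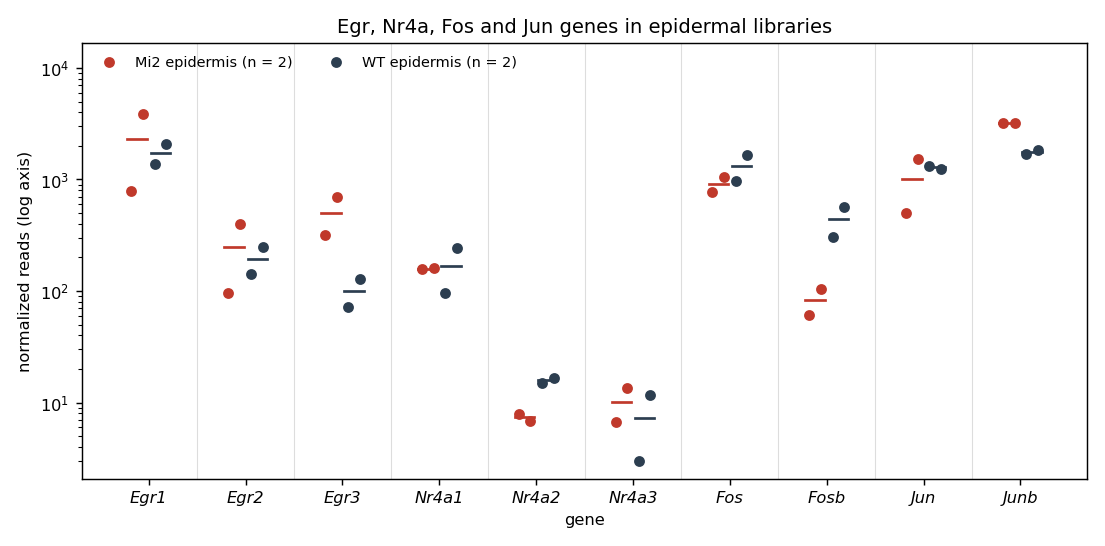
Normalized reads (log axis) of the 10 genes in each epidermal library; points are libraries and short lines are group means. The red Mi2 points lie above the dark WT points for Egr3 and Junb and below them for Fosb and Nr4a2, and the Mi2 points of Egr1, Egr2 and Jun lie on either side of the WT points.

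Per kilobase of annotated exons, Junb led in both epidermal groups, at 1387 ± 3.87 normalized reads per kb in Mi2 epidermis and 768 ± 41.4 in WT epidermis. Fos, Jun and Egr1 followed in WT epidermis at 559 ± 203, 403 ± 13.9 and 386 ± 109. Within WT replicate 1 they stood at 415, 413 and 309 per kb, and within WT replicate 2 at 702, 393 and 463. Jun and Egr1 thus changed order between the WT libraries. Fosb ranked 8 in Mi2 epidermis at 13.3 ± 4.97 per kb and 5 in WT epidermis at 70.3 ± 29.9, whereas Egr3 ranked 5 in Mi2 epidermis at 114 ± 60.2 and 8 in WT epidermis at 22.5 ± 8.92.

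The direction of small changes in epidermis depends on the scaling. The median log2 change of all genes was -0.03 as deposited, -0.16 when scaled without the 50 most abundant genes and -0.27 when scaled without mitochondrial genes. The genes called higher and lower were 2185 and 1900 as deposited, 1738 and 2099 without the 50 most abundant genes and 1531 and 2743 without mitochondrial genes. Egr1, Egr2 and Nr4a1 had small positive log2 changes as deposited and small negative ones under both of these scalings, while Egr3 and Junb stayed positive and Fosb stayed negative.

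Among related genes in epidermis, beside 28.2% of all genes called, 2 of 6 tested relatives were higher and 0 lower: Fosl1, an AP-1 subunit, changed by 3.74 on the log2 scale (adjusted p = 0.0108 by limma) and Maff by 1.40 (0.0237). The call of Fosl1 ended without Mi2 replicate 1 (log2 change 3.38, adjusted p = 0.0574 by limma), and that of Maff in 3 of 15 alternative fits, without WT replicate 1 (1.35, 0.131), without WT replicate 2 (1.45, 0.0994) and scaled without mitochondrial genes (1.17, 0.0503). Of 9 MAP kinase feedback genes, 2 were higher and 1 lower; the ERK phosphatase Dusp6 changed by 2.69, Dusp2 by 3.45 and Dusp1 by -1.63. Of 23 other immediate early genes, 6 were higher and 2 lower (list median 0.12); Ier5 changed by 2.32, the kinase Plk3 by 3.35, the kinase Sik1 by -1.88 and the RNA-binding Zfp36l1 by -1.15. None of 11 serum response and Egr cofactors was called by limma, 3 had an unadjusted p under 0.05, and edgeR and DESeq2 each called 1. Of 10 heat shock genes 2 were higher and 0 lower, Hsp90aa1 by 1.47 and Dnaja1 by 0.94 (list median 0.35). Without WT replicate 2 the calls of Dusp1 (log2 change -1.36, adjusted p = 0.0639 by limma), Dusp2 (2.46, 0.126) and Dnaja1 (1.03, 0.109) ended. Without WT replicate 1 those of Zfp36l1 (-1.17, 0.0508), Hsp90aa1 (1.30, 0.0934) and Dnaja1 (0.86, 0.182) did. Dnaja1 lost its call in 4 of 15 alternative fits and Hsp90aa1 in 2, limma without trend among them for both.

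**Figure D3:**
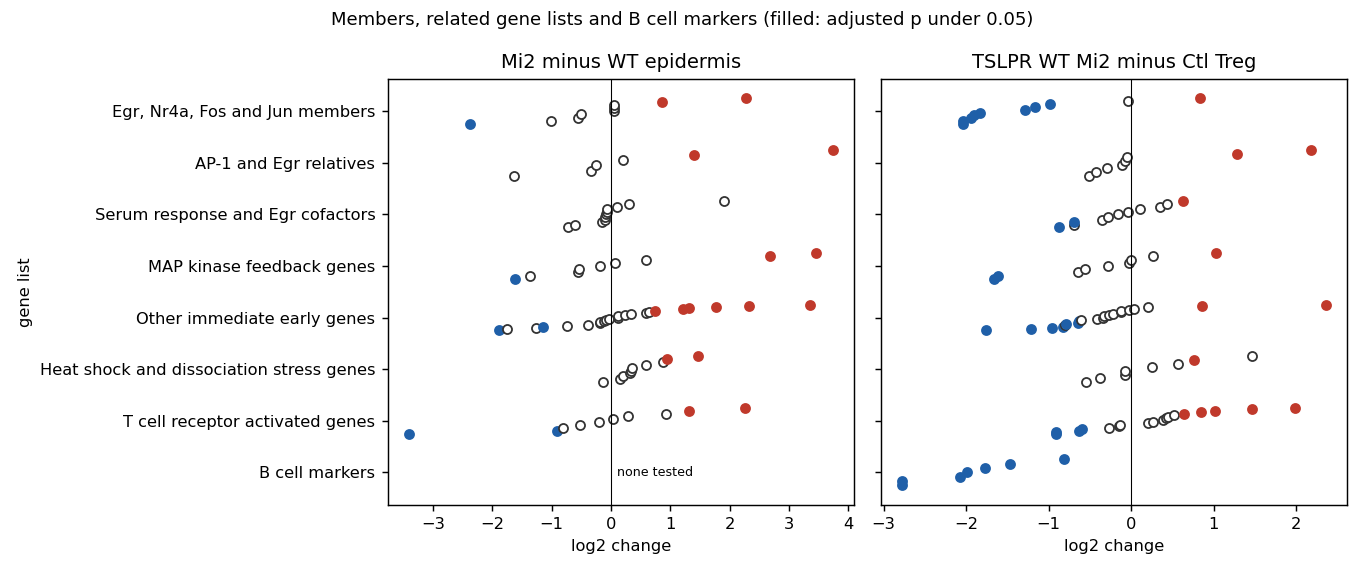
Log2 change of each tested gene in the 10-gene set, in related gene lists and in B cell markers, for Mi2 against WT epidermis and TSLPR WT Mi2 against Ctl Tregs; filled points are called (red higher, blue lower) and open points are not. In Tregs 8 of 10 members and all 7 B cell markers are filled blue, while in epidermis members and lists spread to both sides of 0.

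Egr3 was called in both tissues with opposite signs, at 2.28 in Mi2 against WT epidermis and -1.91 in TSLPR WT Mi2 against Ctl Tregs. Fosb was called lower in both, at -2.37 and -1.83, and Junb higher in both, at 0.85 and 0.84. The tables were normalized separately and hold different cells and genotypes, so no test of the difference was made.

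**Figure D4:**
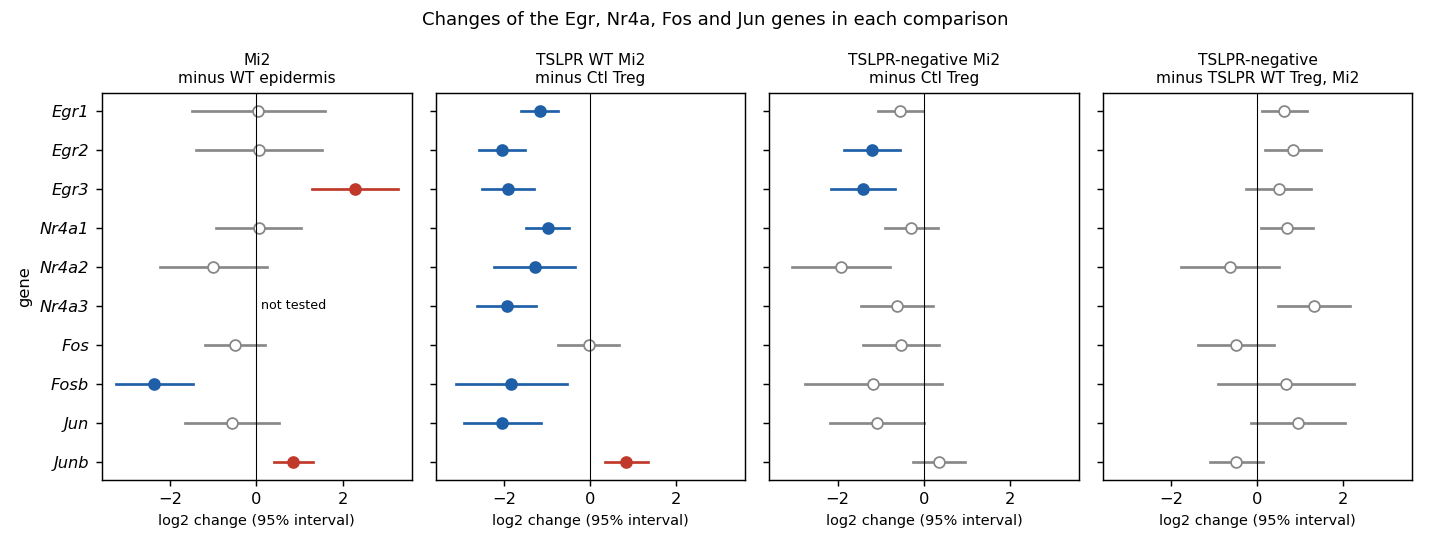
Log2 change with its 95% interval for each gene in the 4 comparisons; filled points are called (red higher, blue lower), open grey points are not, and Nr4a3 was not tested in epidermis. The second panel holds 8 blue genes and 1 red gene, the third panel 2 blue genes and the fourth panel no called gene.

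Genes with the most similar pattern were ranked by the root mean square difference of centred log2 values over the 9 libraries, among 9551 genes tested in both tables. The mean profile of Egr1, Egr2 and Egr3 was closest to Gprasp1 at 0.278, Igtp at 0.287 and Phyhd1 at 0.294, where the median gene stood at 0.879. That of Fos and Fosb was closest to Hivep3 at 0.161, Zfp608 at 0.183 and Sfxn2 at 0.236, with a median of 0.716. For Nr4a1 and Nr4a2 the closest was Arhgef10 at 0.208 (median 0.596), and for Jun and Junb it was Alkbh1 at 0.164 (median 0.503). In TSLPR WT Mi2 against Ctl Tregs, Jun and Junb changed in opposite directions (-2.03 and 0.84), and Fos and Fosb unequally (-0.03 and -1.83). Genes close to the mean profile of such a pair need not resemble either gene. All of these values share the same libraries and their scaling, and they describe likeness only.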

How the data were processed

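The deposited values of both tables are a normalized read signal that the authors scaled by 1 factor per library. In each of the 9 columns every value above 0 was a whole number of reads within 0.05 reads, so depth was recovered from the step of 1 read. Per the file headers, the Treg table was made with HOMER on RefSeq transcripts of mm9; the submitters' processing notes name bcl2fastq 1.8.3, STAR and DESeq2, and the builds mm9 and mm10. The counting program of the epidermal table and both strand settings are not stated in any label or header. The design had named edgeR for raw counts; since the tables hold normalized values, limma 3.58.1 with an intensity trend (R 4.3.3) was run on log2(value + 1) for genes with a mean of at least 10, in 1 fit of 4 epidermal and 1 of 5 Treg libraries. Tests were two-sided, adjusted by Benjamini-Hochberg over all genes tested, called at 0.05, and tested on simulated data. A log2(value + 1) difference understates the change of low genes. edgeR 4.0.16 and DESeq2 1.42.0 were run on recovered reads. Reads carried no stated molecular identifiers, so read counts cover counting error only. All 10 members are named, with Chd4, Foxp3, Crlf2, some cell type markers, up to 4 genes with the smallest p of each list, and up to 3 most similar genes per family. In TSLPR WT Mi2 against Ctl Tregs, every called gene of the antigen receptor list is named. The members and lists were chosen with earlier results of these data known.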

Additional observations from a re-analysis of the deposited data

Results flagged for a closer look

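Egr3 moved in opposite directions in the 2 tissues. Its log2 change was 2.28 in Mi2 against WT epidermis, where both Mi2 libraries lay above both WT libraries, and -1.91 in TSLPR WT Mi2 against Ctl Tregs, where both TSLPR WT Mi2 libraries lay below both Ctl libraries. The difference between the tissues was not tested.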

How the results depend on the processing

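Egr3 and Fosb in epidermis kept direction and call in all 15 alternatives. In TSLPR WT Mi2 against Ctl Tregs, Egr1, Egr2, Egr3, Nr4a3 and Jun kept both in 15 of 16. The exception was the fit with no filter on low values, which called 0 members and 0 genes in each of the Treg comparisons. With libraries left out in turn, members called ranged from 2 to 5 in epidermis (all genes 1113 to 5815), from 6 to 7 in TSLPR WT Mi2 against Ctl Tregs (2504 to 2742), from 0 to 1 in TSLPR-negative against TSLPR WT Tregs (159 to 453) and from 0 to 3 in TSLPR-negative against Ctl Tregs (372 to 687). limma without trend called 3 genes in TSLPR-negative against TSLPR WT Tregs, and 1 gene and 0 members in TSLPR-negative against Ctl Tregs; the cause was not tested. For TSLPR-negative against TSLPR WT Tregs, where 115 genes were called, DESeq2 called 241 and median-of-ratios scaling 72.

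Signs turned only for changes near 0 or with a library left out. In epidermis Nr4a1 was -0.102 with edgeR and -0.0907 with DESeq2. Scaled without the 50 most abundant genes, Egr1, Egr2 and Nr4a1 were -0.0853, -0.0716 and -0.0698, and scaled without mitochondrial genes -0.19, -0.18 and -0.17. With libraries left out, epidermal changes ranged from -1.10 to 1.19 for Egr1, -0.97 to 1.08 for Egr2, -0.61 to 0.73 for Nr4a1, -1.37 to 0.25 for Jun and -0.0302 to 0.647 for Mkl1. In TSLPR WT Mi2 against Ctl Tregs they ranged from -0.18 to 0.12 for Fos, -0.22 to 0.15 for Chd4, -0.646 to 0.0485 for Mafk, -1.19 to 0.16 for Fosl2 and -0.12 to 0.34 for Foxp3. Hsph1 ranged from -0.87 to 0.14 in TSLPR-negative against TSLPR WT Tregs. In TSLPR-negative against Ctl Tregs, Nr4a1 ranged from -0.58 to 0.0013, Jund from -0.995 to 0.0922 and Foxp3 from -0.19 to 0.27, and Foxp3 was -0.0038 with edgeR, -0.0367 with DESeq2 and -0.0188 with median-of-ratios scaling.

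No label pairs same-numbered libraries. Their deviations correlated at 0.123 in epidermis and 0.0917 in Tregs. Of the 10 members, replicate 2 was the higher for 10 in TSLPR WT Mi2 Tregs, 8 in Ctl Tregs, 8 in Mi2 epidermis and 9 in WT epidermis. No share of all genes higher in replicate 2 was computed beside these counts. Whether same-numbered libraries share more than a number was not tested. With the replicate number as a block, 3 members (5170 genes) were called in epidermis and 9 members (4361 genes) in TSLPR WT Mi2 against Ctl Tregs. Without the block these were 3 members (4085 genes) and 9 members (3383 genes). No paired analysis was possible for the TSLPR-negative comparisons because that library has no replicate number.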
